A study of Mus musculus with 8 samples.

Results

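Sorcs1 and its relatives encode sorting receptors with a VPS10 domain, a luminal ligand-binding domain named after a yeast receptor that carries hydrolases to the vacuole. The members were the rows of the count table with the symbol Sorcs1, Sorcs2, Sorcs3, Sort1 or Sorl1. Of these 5 symbols 4 had a row among 12211 genes, all except Sorcs3. The group was chosen by the counts of Sorcs1, which were above 0 in PUS10KO libraries only, so the difference of Sorcs1 between genotypes is given as a description without a test. The other members entered by their names. The libraries were made from total RNA of mouse embryonic fibroblasts, a culture of connective tissue cells, kept in medium with serum and antibiotics. There were 4 control libraries, labelled wild type (WT), and 4 libraries labelled PUS10KO, the targeted gene Pus10 encoding a pseudouridine synthase that isomerises uridine in RNA. Libraries were numbered 1 to 4 in each genotype, and the design text speaks of 4 sets. The labels used here give no strain, embryo age, passage or clone, nor whether separate cultures or animals were used. The p-values therefore measure only the spread between these libraries, which may be technical.

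VPS10-domain receptors are single-pass membrane proteins that travel between the trans-Golgi network, the cell surface and endosomes. Their propeptides are cut off by furin, clathrin adaptors carry them forward, the retromer complex returns them from endosomes, and metalloproteases and gamma-secretase can shed them. Sortilin, the product of Sort1, carries lysosomal proteins such as prosaposin and takes up progranulin and neurotensin. It also binds proneurotrophins together with the p75 neurotrophin receptor. SorLA, from Sorl1, sorts the amyloid precursor protein. SorCS1 and SorCS2 are known mainly from neurons, where SorCS1 sorts neurexin and SorCS2 acts with the p75 receptor as a receptor for pro-BDNF. Most members are abundant in the nervous system, and sortilin is found in many other tissues.

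Library totals ran from 17561114 to 24563499 counts, and 11909 genes had enough counts to be tested. The targeted gene Pus10 averaged 46.1 ± 6.46 CPM over the 4 controls and 13.8 ± 1.60 CPM over the 4 PUS10KO libraries (mean ± SD), so its transcript was lower but still read in the libraries labelled PUS10KO. The protein was not measured here. CPM expresses a count relative to library size after TMM scaling, TMM being edgeR's correction for differences in library composition. All 14 fibroblast markers examined had a row, and their summed level was 19690 to 24910 CPM in control libraries and 12750 to 19790 CPM in PUS10KO libraries. Of the 14, 4 fell and none rose, where 7.11% of all tested genes fell and 5.90% rose. Those that fell were Thy1, Vim, Col1a2 and Pdgfrb (edgeR adjusted p = 4.44e-06, 0.0254, 0.0499 and 0.0461), the last 2 close to the threshold of 0.05. Thy1, a fibroblast surface glycoprotein, went from 21.8 to 0.024 CPM on average, while Pdgfra, a growth factor receptor gene of fibroblasts, had 49.8 CPM in control and 101 CPM in PUS10KO without passing the test (edgeR adjusted p = 0.0605). The 3 genes of the Y chromosome with a row had 15173 counts in PUS10KO and 3 counts in control. Genotype and sex chromosome content, and any other difference between the lines, therefore cannot be told apart in what follows. In such bulk samples fewer cells expressing a gene and less RNA per cell cannot be told apart either.

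The start region of Sorcs1 is shown first because the gene was read in one genotype only. That of Sorl1, a member read in both genotypes, is set beside it. Each line holds the 250 bases before the start site, from the RefSeq table for GRCm38.p6, on the minus strand and written 5′ to 3′. Both start sites are also those of GENCODE M21. Capitals mark every CG dinucleotide, which reads alike on both strands and is the site of DNA methylation in mammals.
Sorcs1, chr19:50678647-50678896: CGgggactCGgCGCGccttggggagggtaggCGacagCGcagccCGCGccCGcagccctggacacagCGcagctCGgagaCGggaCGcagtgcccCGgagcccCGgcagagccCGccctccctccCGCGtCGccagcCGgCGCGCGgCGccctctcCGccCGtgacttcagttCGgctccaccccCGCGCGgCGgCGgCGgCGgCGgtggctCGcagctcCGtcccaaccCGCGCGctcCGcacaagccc
Sorl1, chr9:42124298-42124547: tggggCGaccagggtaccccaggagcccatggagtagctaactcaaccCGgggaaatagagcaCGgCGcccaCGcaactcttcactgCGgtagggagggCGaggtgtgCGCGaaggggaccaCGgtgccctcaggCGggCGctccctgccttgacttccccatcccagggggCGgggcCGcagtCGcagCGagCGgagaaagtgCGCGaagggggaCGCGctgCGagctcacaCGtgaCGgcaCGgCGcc

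The Sorcs1 window held 41 CG dinucleotides and had a G and C content of 79.6%. The Sorl1 window held 26 and had 69.6%. A second Sorl1 start region in the table held 9 and had 47.2%, and that of Sorcs3, the member without a row, held 6 and had 48.4%. Over 32851 windows of this length in the table the median was 6 CG dinucleotides, and 99.1% of the windows held 41 or fewer and 91.4% held 26 or fewer. The letters TATAAA stood on neither strand of either window. Methylation was not measured in these samples. Of the 5 symbols 3 were matched in the table of start regions, Sorcs1, Sorcs3 and Sorl1.

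Sorcs1 (ENSMUSG00000043531.16, chromosome 19, 50143299 to 50678646, minus strand, GRCm38) is a gene of 535 kb with 8 annotated transcripts. Control libraries 1 to 4 had 0 counts each. PUS10KO libraries 1 to 4 had 287, 292, 577 and 529 counts. On the scaled measure these were 15.8 CPM (exact 95% Poisson interval 14.0 to 17.8), 11.6 CPM (10.3 to 13.0), 24.4 CPM (22.4 to 26.4) and 28.6 CPM (26.2 to 31.2). The genotypes did not overlap, which follows largely from the choice of Sorcs1, and PUS10KO 3 and 4 lay above PUS10KO 1 and 2. The intervals cover counting error only, and those of the 2 lower libraries did not reach those of the 2 higher ones. The highest PUS10KO library had 2.47 times the lowest. A floor of 3 counts, used in place of 0, was 0.144 to 0.164 CPM in a control library. The exact 95% Poisson intervals of the control libraries reached up to 0.177 to 0.202 CPM. Set against a floor of 3 counts over the whole control group, the 1685 counts of the PUS10KO group were 520-fold higher after TMM scaling. That ratio includes no error of the PUS10KO counts and no spread between libraries. It also rests on the values by which Sorcs1 was chosen.

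The mean of Sorcs1 in PUS10KO was 20.1 ± 7.77 CPM (SD, n = 4), above 38.5% of the tested genes in that genotype. Where it was read at all, it thus lay below the median of the tested genes. Rows with 0 counts in all 4 control libraries were rare, 15 of 12211 or 0.123% of the table, and Sorcs1 was chosen for being one of them. Within these 15, Sorcs1 had the second highest sum of counts in PUS10KO after Eif2s3y of the Y chromosome with 5989. The third, Ccdc184, had 653. The reverse, 0 counts in all 4 PUS10KO libraries, held for 7 rows or 0.0573%, led by Frmd3 with 304 counts in control. The table itself holds only rows with at least 27 counts over the 8 libraries, and Sorcs1 passed that level and the filter on low counts through the PUS10KO libraries alone.

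**Figure D1:**
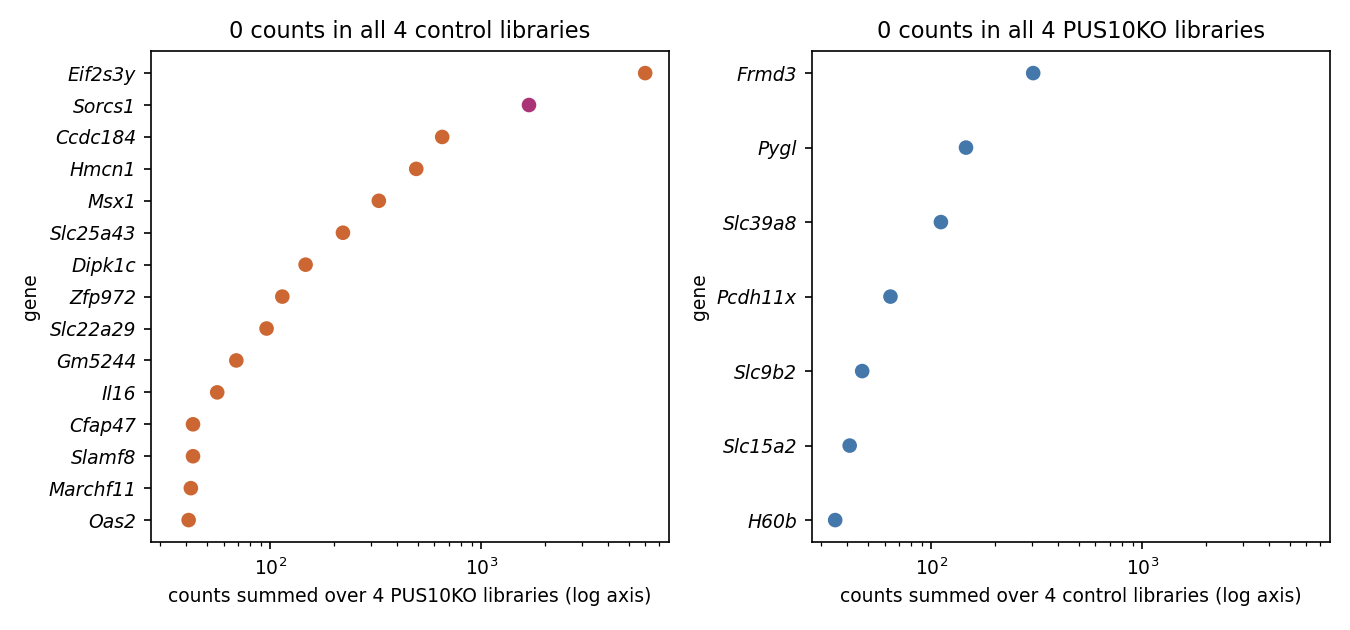
Genes with 0 counts in all 4 libraries of one genotype; the horizontal log axis gives the counts summed over the 4 libraries of the other genotype, 1 point per gene. Sorcs1 (purple) is second of the 15 genes absent from control with 1685 counts, and the 7 genes absent from PUS10KO reach at most 304 counts.

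Annotated antisense genes overlap both ends of Sorcs1. Gm26629 runs on the opposite strand from 50677406 to 50778662, across the first exon and the window printed above, and Gm45352 from 50146938 to 50180652. Neither had a row in the table. No source used here gives the strand setting of the counting, so reads of these antisense genes cannot be told from reads of Sorcs1.

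Markers of neurons, the cells best known for Sorcs1, were examined beside it. Of 13 neuron markers 4 had a row, Tubb3, Map2, Stmn2 and Gap43, and the defining genes Rbfox3, Snap25 and Syt1 did not. The summed level of the 4 was 35.1 to 120 CPM in control and 26.6 to 69.4 CPM in PUS10KO, so the groups overlapped and the highest libraries were controls. Stmn2, which encodes a tubulin-binding protein of growing neurites, fell from 7.43 to 0.12 CPM (log2 change -5.91, edgeR adjusted p = 0.00131). The other 3 did not pass, with log2 changes of 0.04 for Tubb3, -1.36 for Map2 and 1.13 for Gap43 (edgeR adjusted p = 0.956, 0.304 and 0.0547). All adjusted p-values here come from edgeR's quasi-likelihood test of all tested genes by the Benjamini-Hochberg method, unless another tool is named.

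Sorcs2 was lower in PUS10KO. Sorcs2 (ENSMUSG00000029093.14, chromosome 5, 36017180 to 36398139, minus strand) had 54.4, 40.1, 69.0 and 81.1 CPM in controls 1 to 4, and PUS10KO libraries 1 to 4 had 24.5, 16.3, 17.1 and 34.6 CPM. All PUS10KO libraries lay below all control libraries, of which control 2 was the lowest. Genotypes without overlap in CPM were seen for 20.3% of the tested genes. Controls averaged 61.1 ± 17.8 CPM and PUS10KO libraries 23.1 ± 8.53 CPM (SD, n = 4). Sorcs2 fell by 1.41 on the log2 scale (SE 0.30, 95% interval -2.08 to -0.74, edgeR adjusted p = 0.0146). It was the only one of the 3 members open to this test that passed it, where 13.0% of the 11909 tested genes passed in either direction, 5.90% rising and 7.11% falling. Between libraries of the same number Sorcs2 in PUS10KO was 0.450, 0.406, 0.247 and 0.427 times the control value for numbers 1 to 4. The pair numbered 3 differed most. The call survived leaving out any 1 of the 8 libraries, with adjusted p between 0.00839 (without PUS10KO 4) and 0.0465 (without PUS10KO 3). The median log2 change of chromosome 5 was 0.18, and its part in the change of Sorcs2 was not tested. Psapl1, a gene inside Sorcs2 on the opposite strand, had no row.

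Sort1 (ENSMUSG00000068747.14, chromosome 3, 108284082 to 108361511, plus strand) was read at a low level in both genotypes. Control libraries 1 to 4 had 39, 11, 60 and 64 counts, or 1.90, 0.60, 3.09 and 3.06 CPM. PUS10KO libraries 1 to 4 had 26, 37, 84 and 50 counts, or 1.43, 1.47, 3.55 and 2.71 CPM. The genotypes overlapped, and the lowest value, in control 2, had an exact 95% Poisson interval of 0.30 to 1.08 CPM. Controls averaged 2.16 ± 1.18 CPM and PUS10KO libraries 2.29 ± 1.03 CPM (SD, n = 4). The log2 change was 0.08 (SE 0.51, 95% interval -1.08 to 1.24, edgeR adjusted p = 0.946). That interval, from the fit without replicate numbers, spans 0.473-fold to 2.36-fold, so in that fit neither a doubling nor a halving lies outside it. With the replicate number as a block the log2 change was 0.14 (SE 0.27, edgeR adjusted p = 0.708), and no interval was computed. Sort1 was higher in PUS10KO for numbers 2 and 3 and lower for numbers 1 and 4. Its mean level was above that of only 8.86% of the tested genes.

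Sorl1 (ENSMUSG00000049313.8, chromosome 9, 41964720 to 42124297, minus strand) was lower still. Controls 1 to 4 had 1.17, 0.82, 1.80 and 2.44 CPM, and PUS10KO libraries 1 to 4 had 1.71, 0.80, 1.94 and 2.16 CPM. These rest on 15 to 51 counts per library, and the genotypes overlapped over nearly their whole range. The log2 change was 0.08 (SE 0.43, 95% interval -0.89 to 1.04, edgeR adjusted p = 0.939), which allows 0.538-fold to 2.06-fold in the fit without replicate numbers. With the replicate block the log2 change was 0.10 (SE 0.23, edgeR adjusted p = 0.754). The sign of the fold changes of Sort1 and Sorl1 turned in some fits that left out 1 library.

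**Figure D2:**
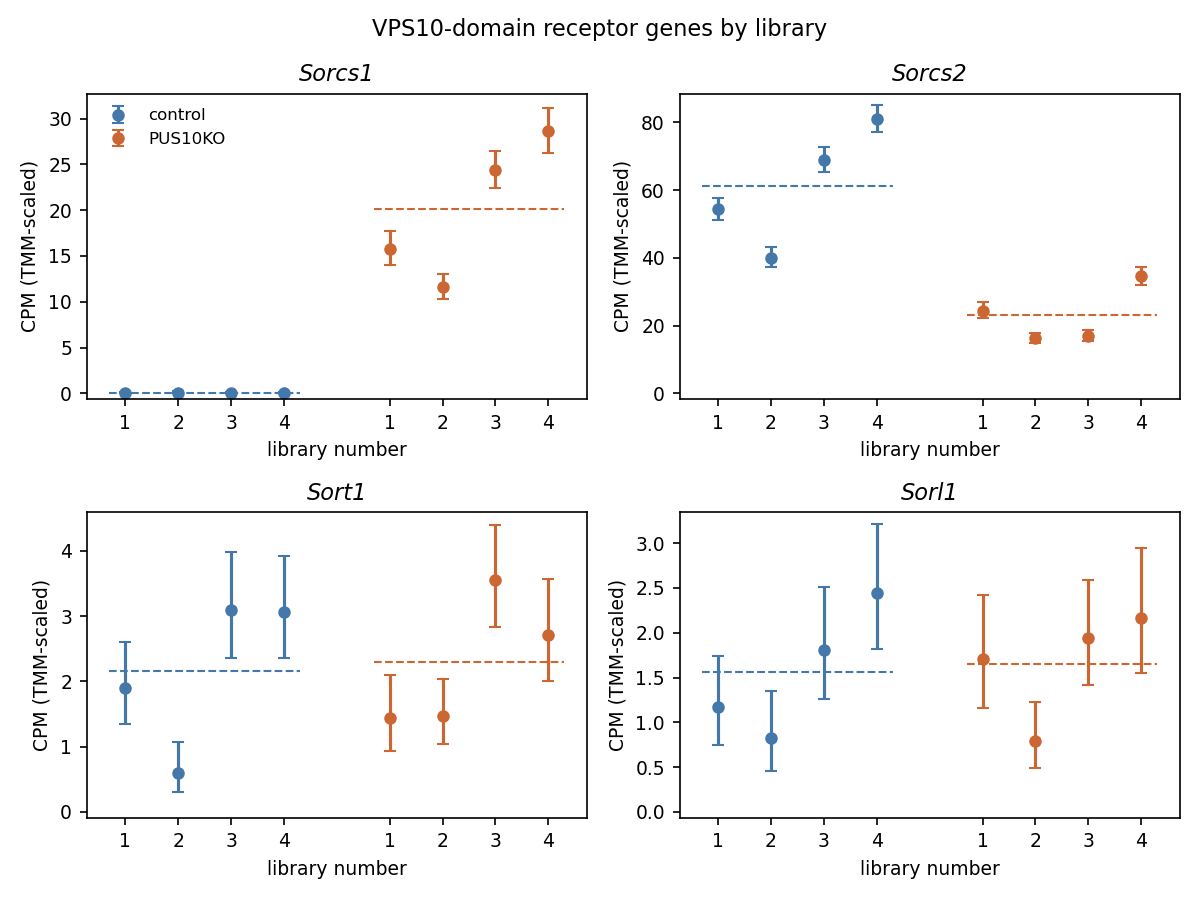
TMM-scaled CPM of the 4 member genes (vertical axis, own scale in each panel) in control libraries 1 to 4 (blue) and PUS10KO libraries 1 to 4 (orange), with exact 95% Poisson intervals and dashed group means. Sorcs1 is at 0 in control and 11.6 to 28.6 CPM in PUS10KO, Sorcs2 does not overlap in the other direction, and Sort1 and Sorl1 overlap.

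Among the members, Sort1 and Sorl1 shared a difference between library numbers in both genotypes. Sort1 and Sorl1 were higher in libraries 3 and 4 than in libraries 1 and 2 in both genotypes, as were 22.9% of the tested genes. For Sort1 the mean of libraries 3 and 4 was 2.46 times that of libraries 1 and 2 in control and 2.15 times in PUS10KO. For Sorl1 these ratios were 2.13 and 1.64. Sorcs1 had a ratio of 1.93 in PUS10KO. Sorcs2 had 1.59 in control and 1.27 in PUS10KO, where PUS10KO 3 lay below PUS10KO 1. What the numbers stand for is not given in the labels, and their part in these levels was not tested.

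Levels of different genes were compared per length, as CPM per kb of exon, with the union of annotated exons of 8.44 kb for Sorcs1, 8.80 kb for Sorcs2, 7.57 kb for Sort1 and 11.3 kb for Sorl1. In control the order was Sorcs2 (6.95 ± 2.02 CPM per kb), Sort1 (0.286 ± 0.156), Sorl1 (0.138 ± 0.063) and Sorcs1 (0). In PUS10KO it was Sorcs2 (2.63 ± 0.969), Sorcs1 (2.38 ± 0.921), Sort1 (0.302 ± 0.136) and Sorl1 (0.146 ± 0.053). The neighbours Sorcs2 and Sorcs1 in PUS10KO differed by less than their spread, and Sorcs1 exceeded Sorcs2 in PUS10KO 3 only. Sort1 and Sorl1 overlapped in range within each genotype, although Sort1 was the higher in all 8 libraries. Summed over the 4 genes the level was 7.37 ± 2.23 CPM per kb in control and 5.46 ± 1.82 in PUS10KO, and the groups overlapped. Sorcs2 made up 94.6% ± 1.57 of this sum in control and 48.5% ± 9.01 in PUS10KO. Sorcs1 made up 43.2% ± 6.81 in PUS10KO. Since Sorcs1 was chosen for being read in PUS10KO only, its part in these shares follows from that choice. The shares are therefore only a description. The lengths come from GENCODE M21, while no source used here gives the annotation used for counting.

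**Figure D3:**
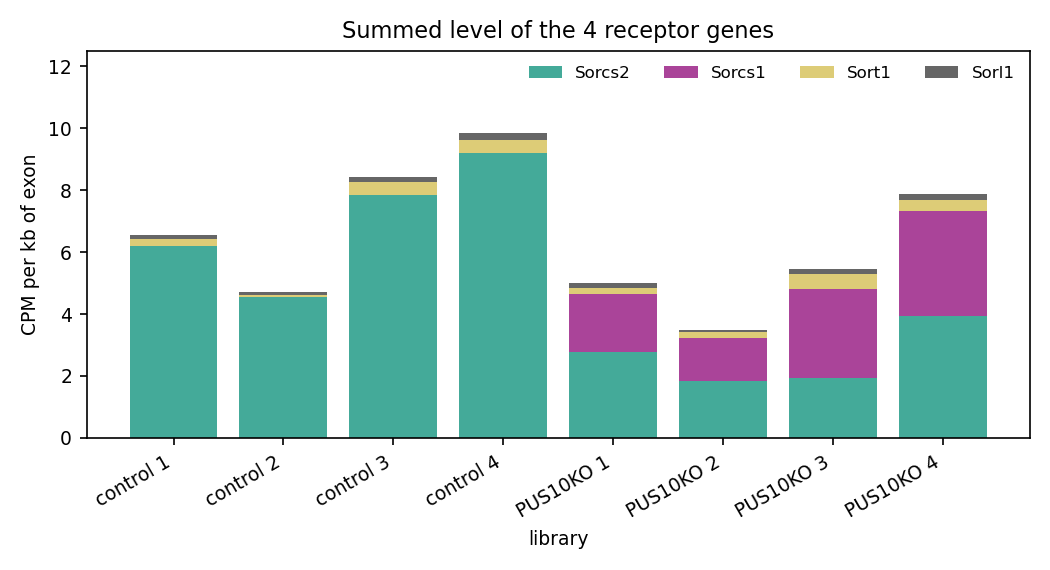
Stacked CPM per kb of exon (vertical axis, from 0) of Sorcs2, Sorcs1, Sort1 and Sorl1 in each of the 8 libraries. Control bars are almost wholly Sorcs2, and in the PUS10KO bars Sorcs1 takes 37.5% to 52.8%. Sorcs1 was chosen for being read in PUS10KO only.

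None of the tested genes nearest to Sorcs1 rose, where 5.90% of all tested genes rose, 7.11% fell and 13.0% passed in either direction. The 4 nearest tested genes on each side lay 2224 to 2701 kb away, since no gene nearer to Sorcs1 was tested. Of these 8, 1 fell and 7 did not pass, with log2 changes from -1.95 to 0.15, and with the replicate block 4 passed. The median of the 419 tested genes of chromosome 19 was -0.11, and 12.6% of them passed the test. Gsto2, a glutathione transferase gene, fell from 3.97 ± 0.58 to 1.03 ± 0.21 CPM (log2 change -1.95 with SE 0.26, edgeR adjusted p = 0.00154). The nearest genes were Itprip on the lower side (log2 change -0.68, edgeR adjusted p = 0.406, or 0.00339 with the replicate block) and the aminopeptidase gene Xpnpep1 on the higher side (-0.24, edgeR adjusted p = 0.214, or 0.0349 with the block). With the block 39.0% of all tested genes passed.

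Sort1 lies in a denser region. Its 8 nearest tested neighbours were 4.11 to 210 kb away, of which 1 rose and none fell, and 2 passed with the replicate block. On chromosome 3, 11.6% of the 586 tested genes passed. Of all tested genes 13.0% passed, and 39.0% with the block. Psrc1, which encodes a microtubule-associated protein of the mitotic spindle, lies 22.3 kb beyond Sort1 and rose from 25.9 ± 10.8 to 72.8 ± 12.8 CPM (log2 change 1.49 with SE 0.30, edgeR adjusted p = 0.0123). The proteasome subunit gene Psma5, 4.11 kb before Sort1, had 72.5 ± 3.41 CPM in control and 81.1 ± 7.84 CPM in PUS10KO (log2 change 0.16, edgeR adjusted p = 0.405). The calls of Gsto2 and Psrc1 survived leaving out any 1 of the 8 libraries.

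**Figure D4:**
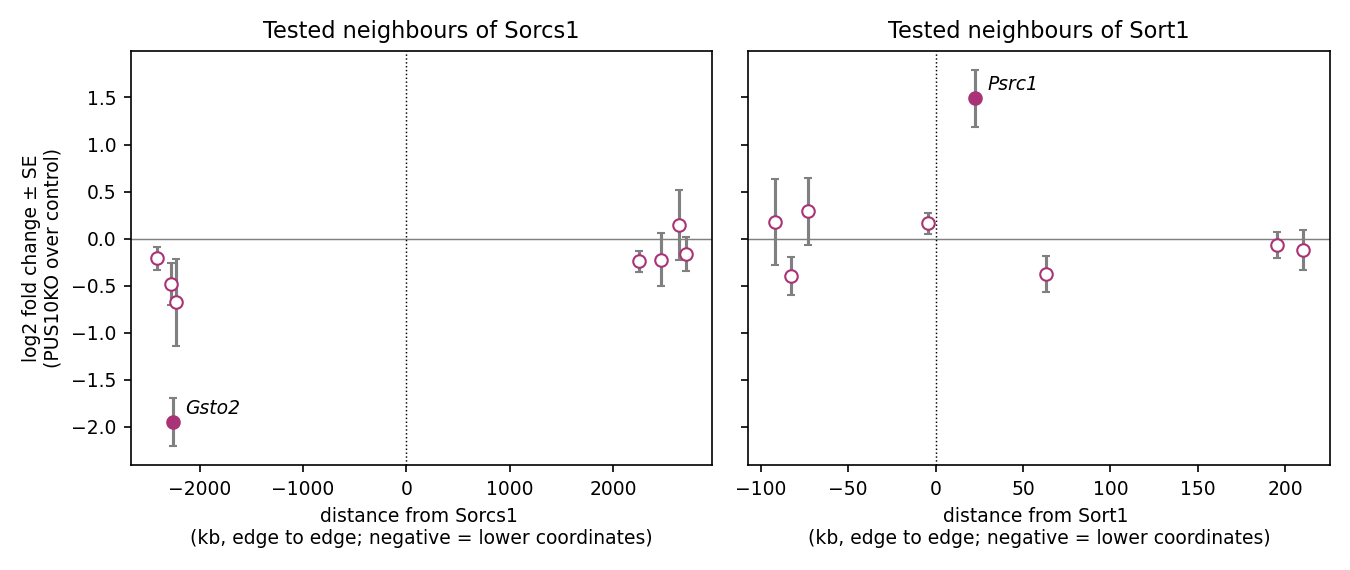
Log2 change with SE (vertical axis) of the 8 nearest tested genes of Sorcs1 (left) and Sort1 (right) by distance in kb (horizontal axis, different scales); filled points had an adjusted p under 0.05. Gsto2 is the filled point below 0 near Sorcs1 and Psrc1 the filled point above 0 near Sort1.

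Genes with a profile like that of a member were sought by the root mean square difference of log2 CPM over the 8 libraries, each gene centred on its own mean, among 11628 genes. Closest to Sorcs1 were Csmd1 (0.53), a large membrane protein gene with complement-control domains, Rgs17 (0.55), a regulator of G protein signalling, Kdm5d (0.72), Icam1 (0.72) and Uty (0.74), against a median of 3.83 over all genes compared. Kdm5d and Uty are histone demethylase genes of the Y chromosome, and Icam1 encodes an adhesion molecule. The 5 had between 1 and 31 counts over the control libraries. Sorcs1 was chosen for its 0 counts in control, and this step sets most of its profile. Genes near 0 in control therefore come closest to it, and the median of 3.83 reflects the same step, so the likeness is only a description. Closest to Sort1 were the kinase gene Dyrk1b (0.25), Abhd18 (0.29), the hyaluronidase gene Hyal1 (0.29), Rab36 (0.29) and the nuclear receptor gene Nr1h3 (0.30), against a median of 0.81. These 5 had mean levels of 1.46 to 5.18 CPM in control. The profile of Sort1 rests on 11 to 84 counts per library.

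The machinery that moves, cuts and uses these receptors was examined in 5 lists of 102 tested genes. Together 2 genes rose, 15 fell and 85 did not pass, which is 16.7% called against 13.0% of all tested genes. The fit with the replicate block had 14 rising and 37 falling, which is 50% against 39.0% of all tested genes. The median log2 change of the lists together was -0.11, against 0.01 over all tested genes. Of the 15 that fell, 8 lie on chromosomes 10 and 12, which held 11 of the 102 genes. Chromosomes 10 and 12 hold no member and were not named in advance, so this split is only a description. The median of all tested genes was -0.25 on chromosome 10 and -0.60 on chromosome 12, where 21.9% and 44.2% passed. Over the other chromosomes 7 of 91 list genes fell and 2 rose. The part of the chromosome-wide difference in the results of these genes was not tested.

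Of 22 retromer, sorting nexin and WASH genes none rose, 3 fell and 19 did not pass, against 1 rising and 10 falling under the replicate block (list median log2 change -0.19). Snx6, a retromer-associated sorting nexin of chromosome 12, fell from 152 ± 18.9 to 85.7 ± 13.3 CPM (log2 change -0.83 with SE 0.15, edgeR adjusted p = 0.0070). Washc4, a subunit of the WASH complex that builds actin on endosomes, had a log2 change of -0.59 (edgeR adjusted p = 0.00996), and the nexin gene Snx3 -0.49 (edgeR adjusted p = 0.0188). Both lie on chromosome 10. Snx3 lost its call when control 3 or PUS10KO 2 was left out (adjusted p up to 0.0607). With all libraries and the block, Snx3 had edgeR adjusted p = 0.00143. The calls of Snx6 and Washc4 survived leaving out any 1 of the 8 libraries.

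Among 26 genes of Golgi and endosome coat adaptors none rose, 2 fell and 24 did not pass (list median log2 change 0.01). That is 7.69% called, below the 13.0% of all tested genes. Under the block 1 rose and 6 fell, or 26.9% against 39.0% of all tested genes. Pacs2, an adaptor for acidic-cluster motifs on chromosome 12, fell from 40.5 ± 8.44 to 16.7 ± 3.55 CPM (log2 change -1.28 with SE 0.20, edgeR adjusted p = 0.00391). Ap3d1, the delta subunit of the AP-3 coat on chromosome 10, had a log2 change of -0.69 (edgeR adjusted p = 0.0368). It kept its call only where control 2 or PUS10KO 4 was left out, with adjusted p otherwise up to 0.0996. With all libraries and the block, Ap3d1 had edgeR adjusted p = 0.000844. The call of Pacs2 survived each of the 8 omissions.

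Of 17 other lysosomal and endocytic receptors none rose, 2 fell and 15 did not pass (list median log2 change 0.02). That is 11.8% called, against 13.0% of all tested genes. Under the block 6 rose and 5 fell, or 64.7% against 39.0% of all tested genes. Igf2r, the large mannose 6-phosphate receptor that shares lysosomal cargo with sortilin, had 362 ± 112 CPM in control and 164 ± 44.2 CPM in PUS10KO (log2 change -1.14 with SE 0.27, edgeR adjusted p = 0.0238). Leaving out any of control 3, control 4, PUS10KO 1 and PUS10KO 2 ended its call, with adjusted p up to 0.0673. Under the block with all libraries its adjusted p was 9.81e-05. Lrp2, the megalin gene, fell from 1.62 ± 0.77 to 0.30 ± 0.14 CPM (log2 change -2.42, edgeR adjusted p = 0.0140). This call held in all 8 fits with 1 library left out, but rests on 127 counts in control and 25 in PUS10KO. In PUS10KO 2 Lrp2 had 0.119 CPM, the level of 3 counts. Ngfr, which encodes the p75 co-receptor of sortilin and SorCS2, had no row.

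Of 13 processing and shedding proteases 1 rose and 4 fell while 8 did not pass (list median log2 change -0.12). That is 38.5% called, against 13.0% of all tested genes. Under the block 2 rose and 4 fell, or 46.15% against 39.0% of all tested genes. With 1 library left out the list had 1 to 3 calls, 1 without control 3, PUS10KO 3 or PUS10KO 4. Aph1b, a gamma-secretase subunit gene, fell from 26.7 ± 4.74 to 8.96 ± 3.93 CPM (log2 change -1.57 with SE 0.31, edgeR adjusted p = 0.0112), a call that survived leaving out any 1 of the 8 libraries. The other calls were less stable. Ncstn, a further gamma-secretase subunit, had a log2 change of -0.50 (edgeR adjusted p = 0.0330), and Adam17, the sheddase of several membrane receptors, -0.56 (edgeR adjusted p = 0.0376). Ncstn kept its call only without control 2 and Adam17 only without control 1, with adjusted p up to 0.0897 and 0.104. Bace2, an aspartyl protease gene, rose from 5.15 ± 1.32 to 11.1 ± 3.89 CPM (log2 change 1.11, edgeR adjusted p = 0.0431), lost its call without any 1 library except PUS10KO 1 or PUS10KO 2 (up to 0.116), and was not called by limma voom (adjusted p = 0.0591). Under the block with all libraries the edgeR adjusted p was 0.00404 for Ncstn, 0.00276 for Adam17 and 0.00258 for Bace2. Adam17 lies on chromosome 12.

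Of 24 tested ligand and cargo genes 1 rose, 4 fell and 19 did not pass (list median log2 change -0.37). That is 20.8% called, against 13.0% of all tested genes. Under the block 4 rose and 12 fell, or 66.7% against 39.0% of all tested genes. Lpl, the lipoprotein lipase gene whose product binds sortilin and SorLA, fell from 42.4 ± 12.1 to 19.1 ± 3.25 CPM (log2 change -1.15 with SE 0.22, edgeR adjusted p = 0.0102). Ctsh, a cathepsin gene, fell from 28.8 ± 1.73 to 12.7 ± 3.81 CPM (log2 change -1.18, edgeR adjusted p = 0.00925). Psap, the gene of the sortilin cargo prosaposin on chromosome 10, had a log2 change of -0.76 (edgeR adjusted p = 0.0460), kept only without control 2 and otherwise up to 0.106. Pdgfrb, a growth factor receptor gene, had -0.45 (edgeR adjusted p = 0.0461), kept only without PUS10KO 1 and otherwise up to 0.128. Under the block with all libraries these 2 had edgeR adjusted p = 0.00195 and 0.0075. Apoe, the apolipoprotein E gene, rose from 0.80 ± 0.48 to 8.46 ± 7.84 CPM (log2 change 3.38 with SE 0.66, edgeR adjusted p = 0.0106). In PUS10KO 1 it had 20.2 CPM and in the other PUS10KO libraries 4.39 to 4.73 CPM, all above the control libraries, and without 1 library its log2 change ran from 2.49 to 3.90. The calls of Lpl, Ctsh and Apoe survived leaving out any 1 of the 8 libraries.

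**Figure D5:**
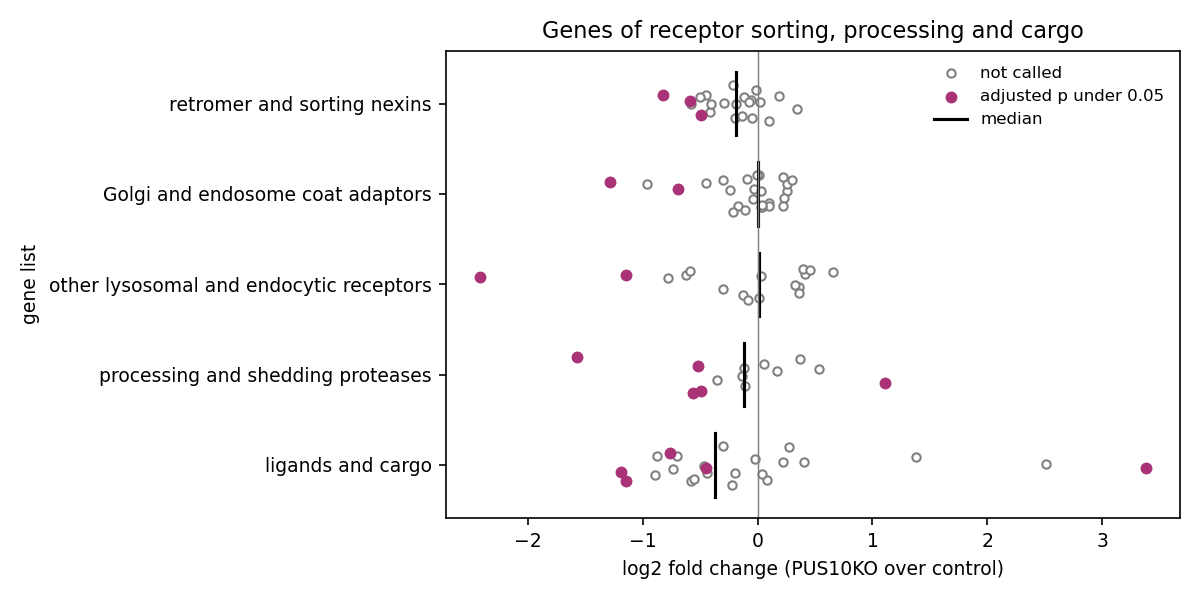
Log2 change (horizontal axis) of each tested gene of the 5 lists (rows); filled points had an adjusted p under 0.05 and black bars are medians. Most filled points lie left of 0, with Bace2 and Apoe to the right.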

How the data were processed

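The files deposited by the authors are a table of unnormalized read counts, with 1 column for each of 8 libraries, and a normalized table. The values of the latter look like log2 values, a scale the authors' deposited header does not name. Per the submitters' processing notes, the tools include DESeq2 and STAR 2.7.8a and the build is mm10. For the read counter, its strand setting and the filter on rows the sources used here give nothing. Libraries were grouped by title. GENCODE M21 (on GRCm38, which mm10 is built from) gave positions and exon lengths, with 12046 rows found by symbol and 121 by a RefSeq synonym.

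Counts were filtered with filterByExpr, scaled by TMM and fitted with edgeR 4.0.16 (quasi-likelihood, robust) in R 4.3.3, genotype being the only term, over 11909 genes. P-values were Benjamini-Hochberg adjusted over all of them, with a threshold of 0.05. Standard errors are the fold change divided by the root of the F statistic. The script was tested on simulated data. DESeq2 1.42.0, limma 3.58.1 (voom), RLE scaling, no filter, a replicate block and each library left out were alternatives.

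Members and lists were chosen with earlier results of these data known. Genes were named by rule: the members, Pus10, up to 6 called genes per list by lowest p, the 5 nearest profiles, and among the neighbours those called or nearest. Some results of named genes are not reported here. The neighbours and the genes absent from 1 genotype were thinned after their values were seen, and the markers named singly were also chosen then. After subtraction of genotype means, same-numbered libraries correlated across genes (r = 0.681, 0.722, 0.633 and 0.687; genes are no replicates). Libraries 1 with 2 and 3 with 4 of opposite genotypes had r = 0.042 to 0.582, and each library correlated best with its own number. The design text speaks of sets, so numbers were read as pairs in the fit with the replicate block. The main fit did not use them, so its SEs, intervals and p-values, also with 1 library left out, ignore the pairs. Every 2 libraries of 1 genotype differed beyond sampling noise (chi-square per degree of freedom 17.9 to 221, where sampling alone gives about 1). Libraries 3 and 4 differed least, with 24.2 in control and 17.9 in PUS10KO, and all others had 65.6 to 221.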

Additional observations from a re-analysis of the deposited data

Results flagged for a closer look

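Within groups of 4 libraries, 4 values lay far from the other 3 by Dixon's 95% criterion, which sets the gap to the nearest library against the group's range. They were found among 48 genes in 2 groups each, 96 groups in all, and chance gives such a gap in about 1 group in 20. None was a VPS10-domain receptor gene. Apoe had 20.2 CPM in PUS10KO 1 against 4.39 to 4.73 CPM in the other PUS10KO libraries, and 1.51 CPM in control 1 against 0.46 to 0.62 CPM in the other controls. Among the neighbours of Sorcs1, Add3 had 33.3 CPM in control 2 against 49.1 to 51.5 CPM, and Xpnpep1 had 201 CPM in control 1 against 165 to 170 CPM.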

How the results depend on the processing

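The mean of Sorcs1 in PUS10KO stayed between 17.1 and 22.9 CPM with 1 library left out. Sort1, never called, had log2 changes from -0.229 to 0.302 in such fits, and was negative without control 2 (-0.229), PUS10KO 3 (-0.215) or PUS10KO 4 (-0.007). That of Sorl1 was negative without control 1 (-0.042), control 2 (-0.136), PUS10KO 3 (-0.014) or PUS10KO 4 (-0.08), with a range of -0.136 to 0.387. The deposited normalized values gave 0.059 for Sort1 with the replicate block. Sorcs2 kept its call under every alternative run. By DESeq2 1146 genes rose and 1287 fell, with list counts of 7 (retromer), 4 (coats), 5 (receptors) and 8 (ligands). The replicate block gave 2273 and 2368, and 11, 7, 11 and 16 in the same lists. With 1 library left out, 492 to 638 genes rose and 520 to 728 fell (560 without PUS10KO 2 and 520 without PUS10KO 3), and the lists had 2 to 3 (retromer), 1 to 2 (coats), 1 to 3 (receptors), 1 to 3 (proteases) and 3 to 5 (ligands) calls, against 3, 2, 2, 5 and 5. The cause was not tested, except that fits with 1 library less hold fewer samples. The paired fit changed the call of no VPS10-domain receptor gene. Sort1 and Sorl1 had 11 to 84 counts per library, and the replicate block took their SE from 0.512 to 0.272 and from 0.428 to 0.227.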

Other observations

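Genes with 0 counts in all 4 PUS10KO libraries included, besides Frmd3, the glycogen phosphorylase gene Pygl (146 counts in control), the zinc transporter gene Slc39a8 (111), the protocadherin gene Pcdh11x (64) and Slc9b2 (47).

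In the authors' deposited normalized table Sorcs1 had 8.84, 8.68, 9.09 and 9.19 in PUS10KO libraries 1 to 4 and 5.89, 6.06, 5.64 and 5.55 in control libraries 1 to 4, in units its header does not name. The control values there differ between libraries that all had 0 counts, and they mirror the PUS10KO values of the same number. In that table the sum of both genotypes is the same for all 4 numbers, for every gene, within 1.4e-08. Sort1 had 7.09, 6.83, 6.96 and 7.06 in control libraries 1 to 4 of the authors' deposited table and 6.94, 7.20, 7.06 and 6.97 in PUS10KO libraries, so the values of Sort1 there no longer show the higher level of libraries 3 and 4 seen in the counts.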
